A study of Mus musculus with 12 samples.

Results

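The transcripts described here come from 38 mouse genes of mitosis and the G2/M transition, given by symbol: the mitotic cyclins and their kinase, the kinases that run mitosis and its checkpoint, and the proteins of the kinetochore, the spindle and cytokinesis. The rule names symbols and uses no measured value. All 38 symbols matched a row among the 55487 genes of the count table, and all 38 passed the filter on low counts that left 14175 genes to test. They were read by RNA sequencing in C2C12, a mouse myoblast line whose cells, given little serum, leave the cell cycle and fuse to multinucleated myotubes. Every culture was differentiated for 5 days in 2% horse serum and was then kept for 24 h either in 4% horse serum (6 libraries, numbered 1 to 6) or in 4% STEM (6 libraries, numbered 7 to 12). STEM is a cell-free secretome collected from partially differentiated human embryonic stem cells. Since STEM took the place of horse serum, its addition and the loss of serum cannot be told apart in this comparison. The sources do not state that the libraries of a group came from independent cultures, so p-values measure the spread between these libraries, which may be technical.

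Cyclin B bound to CDK1 drives a cell into mitosis, and the anaphase-promoting complex (APC/C) with its activator CDC20 ends it by marking cyclin B and securin for destruction. Most of the genes behind these steps are transcribed together late in the cell cycle, through promoter elements called the cell cycle genes homology region (CHR) and the CCAAT box. Nuclei inside myotubes do not divide, while unfused mononucleated cells, called reserve cells when they stay quiescent, remain beside them in a C2C12 dish. The libraries hold RNA of all cells of a well, so fewer cycling cells and less RNA per cycling cell cannot be told apart.

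These promoter elements were looked for in RefSeq windows (GRCm38.p6) of 250 bases before to 50 bases after each gene's start, which were matched by symbol for 31 of the 38 genes. Ccna2, Cdc25c, Aurkb, Incenp, Spc24, Tpx2 and Kif20a had no entry. The CHR was searched as TTTGAA or TTCGAA and the CCAAT box as CCAAT, both on either strand, so that TTCAAA and ATTGG also count; none of these words can be part of another of a different kind, although neighbouring matches may share bases. A CHR word was present in 26 of the 31 genes (83.9%) against 19.2% of all 32851 windows, and at least 1 CCAAT box in 25 (80.6%) against 37.4%. At least 2 boxes were present in 18 genes (58.1%) against 11.7%, and both elements in 23 (74.2%) against 7.52%. A gene with more than 1 window counted if any of its windows matched. The shares beside it are per window, over 27025 symbols, whether or not these were tested here. Counting 1 window per gene, 25 of 35 CHR matches lay within 60 bases of the start. Of 6 genes shown here, Top2a, Cdk1 and Kif11 were called lower with STEM, and Cdc20, Ube2c and Ccnb1 were not called. For each, the 120 bases before the RefSeq start are printed. They are chr11:99024190-99024309 on the minus strand for Top2a, chr10:69352913-69353032 on the minus strand for Cdk1, chr19:37376262-37376381 on the plus strand for Kif11, chr4:118437344-118437463 on the minus strand for Cdc20, chr2:164769809-164769928 on the plus strand for Ube2c, and chr13:100786487-100786606 on the minus strand for Ccnb1. Capitals mark the CHR and CCAAT words.
Top2a: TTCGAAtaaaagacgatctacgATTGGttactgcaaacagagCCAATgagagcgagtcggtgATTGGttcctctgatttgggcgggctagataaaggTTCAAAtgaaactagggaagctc
Cdk1: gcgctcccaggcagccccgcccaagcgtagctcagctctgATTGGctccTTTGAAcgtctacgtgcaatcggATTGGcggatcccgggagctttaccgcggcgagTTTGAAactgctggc
Kif11: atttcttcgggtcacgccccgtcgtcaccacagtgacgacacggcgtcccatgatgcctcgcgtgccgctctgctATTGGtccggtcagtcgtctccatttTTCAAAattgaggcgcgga
Cdc20: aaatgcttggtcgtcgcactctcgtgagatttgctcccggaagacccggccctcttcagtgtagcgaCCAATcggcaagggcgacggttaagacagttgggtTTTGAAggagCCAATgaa
Ube2c: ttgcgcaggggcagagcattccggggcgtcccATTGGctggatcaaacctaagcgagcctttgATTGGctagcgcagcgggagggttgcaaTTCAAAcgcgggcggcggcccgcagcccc
Ccnb1: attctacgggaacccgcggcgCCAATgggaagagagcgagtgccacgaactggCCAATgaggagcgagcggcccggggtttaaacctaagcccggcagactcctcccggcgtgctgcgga
The stretch of Top2a holds 2 CHR words and 3 boxes and that of Cdk1 2 and 2. That of Ccnb1 holds 2 boxes and neither CHR word searched. Only TTTGAA and TTCGAA were searched as the CHR, so a gene without a match may hold another form of it. A match is a run of letters, not a site shown to be bound.

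**Figure D1:**
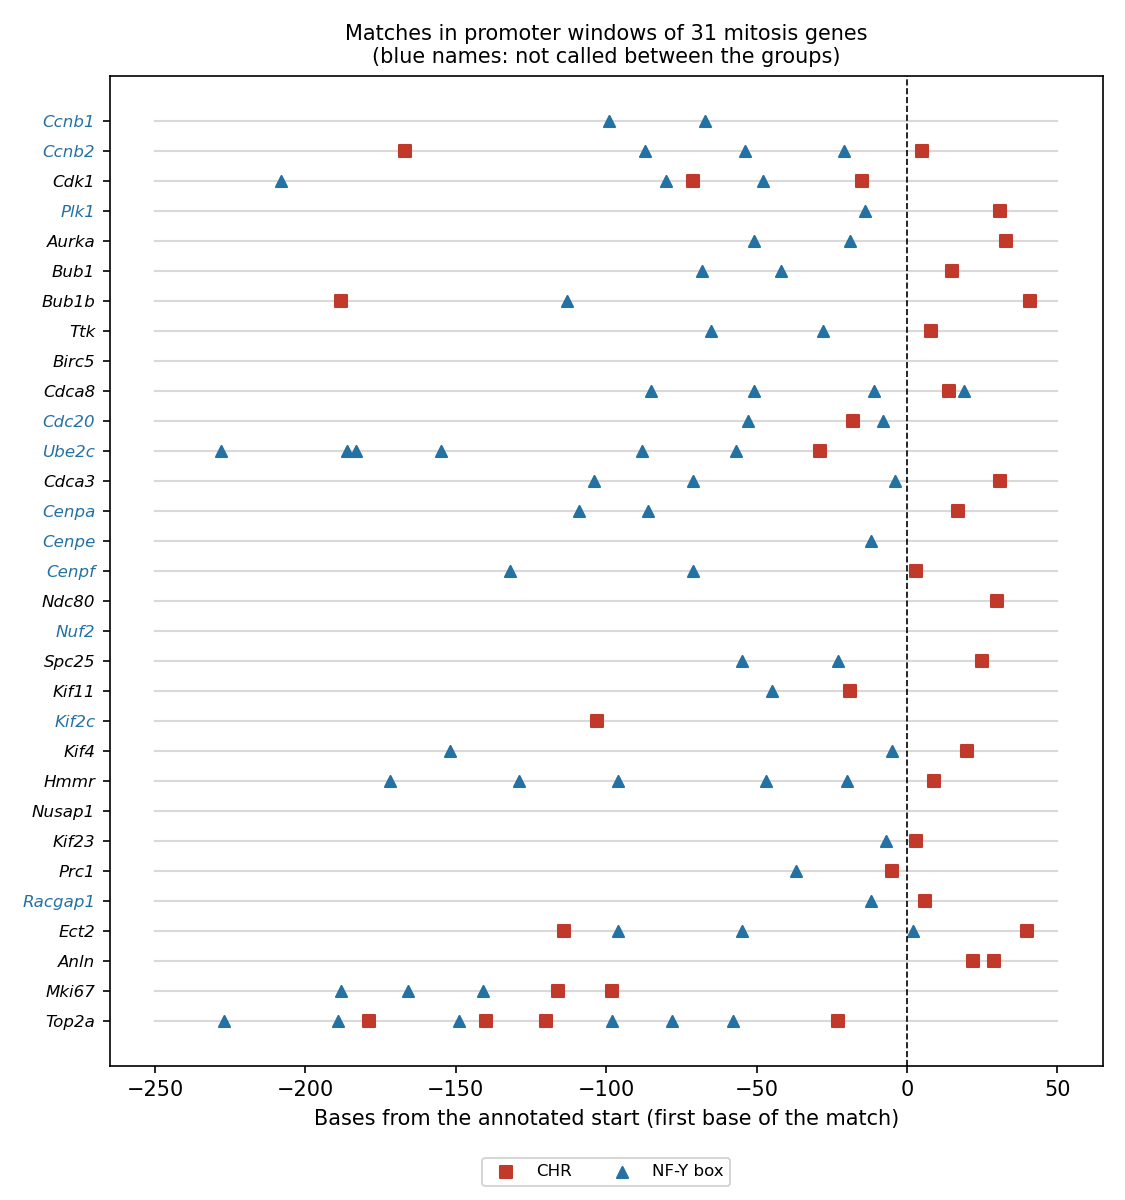
Each line is the promoter window of 1 of 31 mitosis genes, and the horizontal axis gives bases from the annotated start; squares mark CHR words and triangles CCAAT boxes (labelled NF-Y box), with the first window shown for a gene that has more than 1. Squares gather around the start and triangles mostly before it, in genes with black names (called lower with STEM) and in genes with blue names (not called).

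Depth ranged from 13285472 to 18254882 counts in horse serum libraries and from 14909485 to 24536264 counts in STEM libraries. All 16 myotube markers examined, among them Ckm, Acta1, Myog and Ttn, were detected in every library, with summed levels of 13494 to 26171 CPM (counts scaled to one common effective library size). Horse serum library 6 stood apart: on the first principal component of all tested genes it lay at 11.2, between the other horse serum libraries (-35.5 to -24.6) and the STEM libraries (15.5 to 28.6), and on the second it lay at -53.3 against 0.22 to 11.8 for all others. It also had the lowest summed myotube markers, 13494 CPM against 19094 to 26171 in the other 11 libraries, with Myh8, a perinatal myosin, at 79.8 CPM against up to 775 CPM in its group. Its summed level of the 10 markers of myoblasts and reserve cells, 1907 CPM, was the lowest of the horse serum libraries (the others 1948 to 2078 CPM). All 6 STEM libraries lay lower still, at 1736 to 1830 CPM. Itga7, at a horse serum mean of 1106 CPM, was the largest part of that sum, and single markers went both ways. Cdh15 (459 CPM), Spry1 (41.5 CPM) and Heyl (23.5 CPM) were the highest of the horse serum group in library 6. Itga7, Sdc4, Vcam1, Pax7 and Myf5 were the lowest there, and Myod1 and Hey1 lay between. Among 8 leukocyte, 6 fibroblast and 5 endothelial markers, Adgre1, Cd3e and Kdr were at 0 in every library, and the summed levels stayed at or below 6.0, 58.0 and 3.3 CPM. Since library 6 also held the highest mitosis transcripts, the changes of the 38 genes and the counts over lists are given with all 12 libraries and without it. The part of its lower myotube transcripts in these results was not tested.

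With STEM, 24 of the 38 mitosis genes fell and none rose, by the quasi-likelihood test of edgeR, with p-values adjusted by Benjamini-Hochberg over every tested gene (called at 0.05 or less). Over all 14175 genes 17.4% were called lower and 18.9% higher. The same 24 genes fell, and again none rose, without library 6, when 24.5% of 14267 genes were called lower and 26.3% higher. The sizes depended on that library more than the calls did: the median log2 fold change of the 38 genes, STEM over horse serum, was -0.50 with all libraries (a change of -29.3%) and -0.33 without library 6 (-20.6%), beside medians of 0.01 in both cases over all genes tested. All 38 fitted changes were below 0 with all libraries, from -0.86 for Aurkb to -0.11 for Kif20a, and 35 of 38 without library 6. In 15 of the 38 genes every STEM library lay below every horse serum library, as it did in 8.52% of all tested genes. That number was also 15 without library 6, when 16.5% of all genes did so. For a gene without overlap the exact two-sided permutation test over the 12 libraries gives p = 0.00216, unadjusted, the smallest that 6 against 6 libraries can reach. The genes nearest to the threshold were Bub1 (adjusted p = 0.0372) and Kif4 (0.0446) on one side and Nuf2 (0.0566), Racgap1 (0.0667) and Spc24 (0.0700) on the other.

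**Figure D2:**
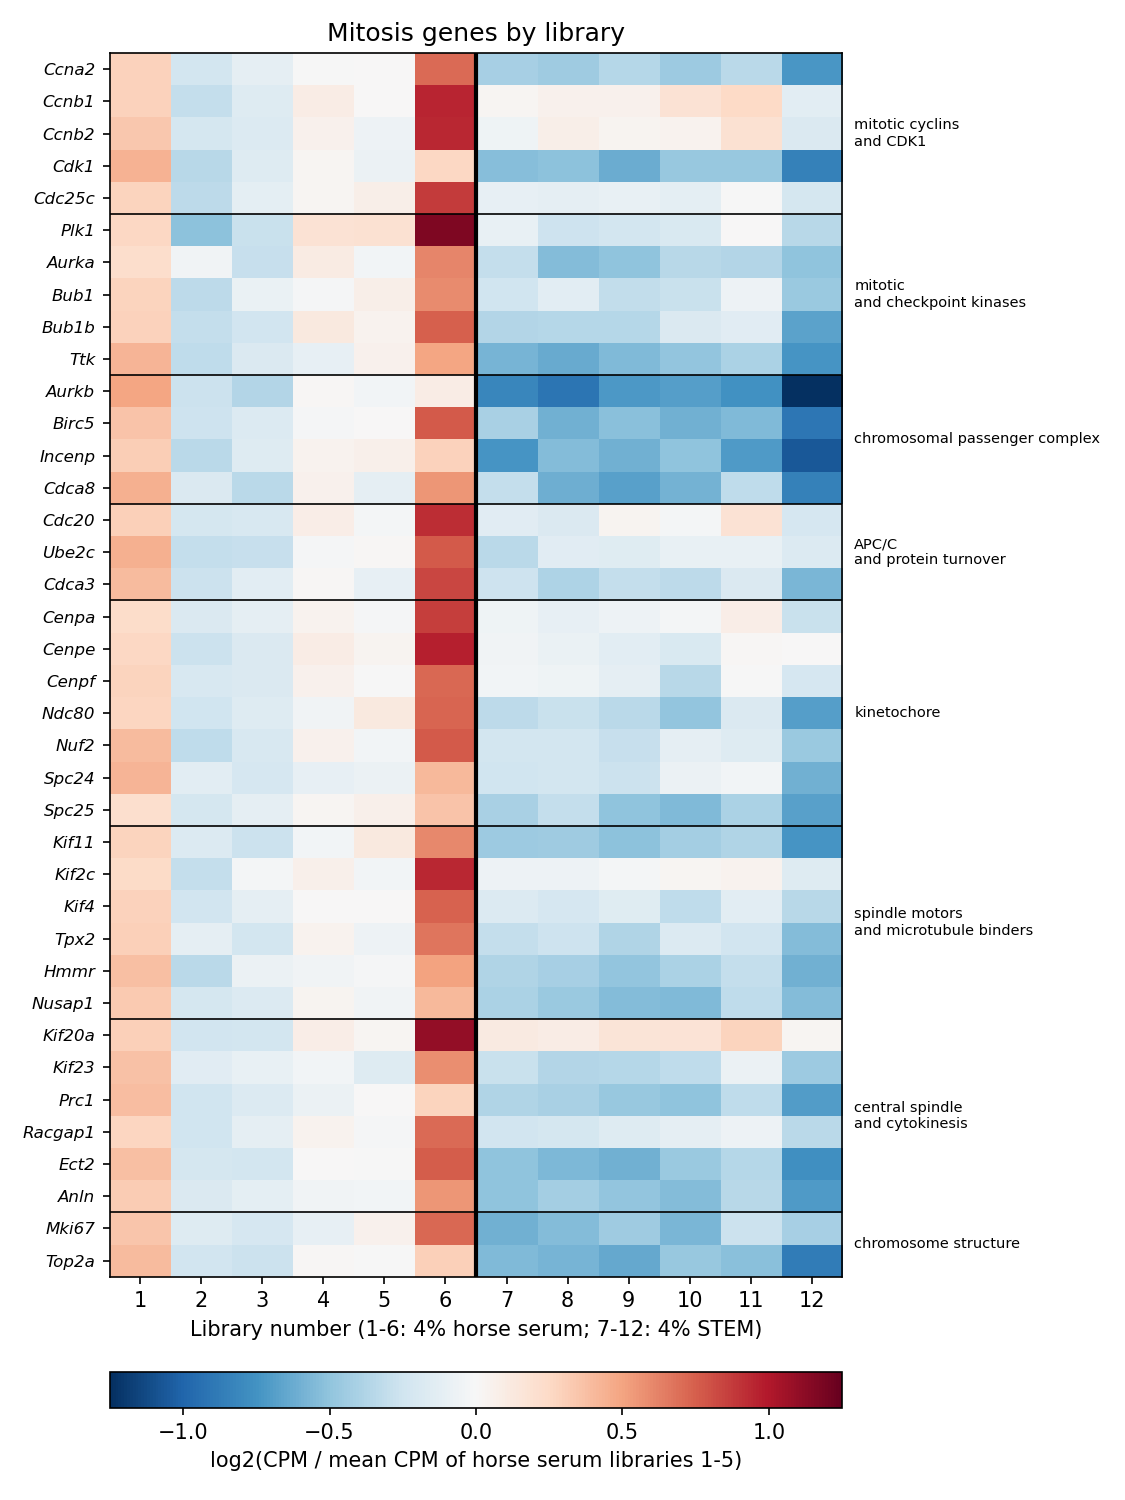
Rows are the 38 mitosis genes grouped by role and columns the 12 libraries, with horse serum left of the black line and STEM right of it; colour gives the log2 ratio of CPM to the mean of horse serum libraries 1 to 5. Library 6 is the reddest column and library 1 the next, and the STEM columns are blue in most rows. Ccnb1, Ccnb2, Cdc20 and Kif2c run from pale blue to light red in STEM, and Kif20a from near white to light red.

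The genes moved as a group from library to library within horse serum. Library 6 was the highest of its group in 32 of 38 genes and library 1 in the other 6, while library 2 was the lowest in 28. Summed over the 38 genes, library 6 reached 3398 CPM and library 1 2774 CPM, and horse serum libraries 2 to 5 lay between 1875 and 2210 CPM. The STEM libraries were tighter, between 1520 and 1887 CPM, with library 12 lowest in 32 genes and library 11 highest in 27. Over single genes the coefficient of variation had a median of 26.1% in horse serum, 16.01% in horse serum without library 6, and 8.73% in STEM. In summed level, the highest STEM library overlapped the lowest horse serum library by a small margin, 1887 against 1875 CPM.

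The 4 subunits of the chromosomal passenger complex, which corrects faulty attachments of chromosomes to the spindle and then moves to the midzone, had the lowest median log2 fold change of any role (-0.74, and -0.63 without library 6), with all 4 lower. Aurkb, the kinase of the complex (ENSMUSG00000020897, chr11:69045647-69051664), ran from 20.6 to 37.3 CPM in horse serum (median 26.5) and from 11.2 to 16.5 CPM in STEM (median 15.4). The groups did not overlap, and library 1, not library 6, was the highest. Its log2 fold change was -0.86 ± 0.13 (SE, adjusted p = 0.000214) and -0.84 ± 0.15 without library 6 (adjusted p = 0.000598). Incenp, the scaffold that holds and activates the kinase, ran from 16.4 to 25.6 CPM in horse serum (median 21.4) and from 9.90 to 14.6 CPM in STEM (median 13.1). Here too the groups were apart, and the change was -0.74 ± 0.12 (adjusted p = 0.000196) and -0.68 ± 0.11 without library 6. Birc5, which encodes survivin, ran from 24.1 to 48.9 CPM (median 28.7) in horse serum against 15.4 to 21.7 CPM (median 19.3) in STEM. Its change went from -0.75 ± 0.16 to -0.59 ± 0.10 when library 6, the highest at 48.9 CPM, was left out. Cdca8, the fourth subunit, known as borealin, changed by -0.65 ± 0.15 (adjusted p = 0.00411, and -0.54 ± 0.13 without library 6), with STEM at 8.69 to 12.7 CPM just reaching the horse serum range of 12.4 to 23.0 CPM.

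The proteins of chromosome structure followed. Top2a, the topoisomerase that untangles sister chromatids, was the most abundant of the 38 in CPM and, per kilobase of exon, in horse serum. It ran from 261 to 414 CPM in horse serum (median 317) and from 172 to 227 CPM in STEM (median 212). All STEM libraries lay below all horse serum libraries, and library 1, at 414 CPM, was above library 6, at 386 CPM. The log2 fold change was -0.65 ± 0.11 (adjusted p = 0.000434) and -0.60 ± 0.12 without library 6 (adjusted p = 0.00192). Mki67, the coat protein of mitotic chromosomes used as a marker of cycling cells, ran from 169 to 322 CPM (median 193) in horse serum and from 129 to 162 CPM (median 139) in STEM. The groups did not overlap, but library 6 was far above the next at 249 CPM, and the change went from -0.62 ± 0.14 to -0.47 ± 0.10 without it.

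The mitotic cyclins and their kinase split. Cdk1 ran from 57.6 to 99.0 CPM in horse serum (median 72.0) and from 40.8 to 52.8 CPM in STEM (median 51.0), with no overlap. It fell by 0.62 ± 0.12 on the log2 scale (adjusted p = 0.000966), and its change was -0.57 ± 0.13 without library 6, which was only the second highest. Ccna2, cyclin A2, which acts in S phase and at entry into mitosis, ran from 79.5 to 152 CPM in horse serum (median 93.1) and from 56.0 to 73.9 CPM in STEM (median 69.1). Its groups were apart as well, with a change of -0.60 ± 0.14 (adjusted p = 0.00492) and -0.45 ± 0.09 without library 6. The B cyclins were not called. Ccnb1 ran from 47.9 to 114 CPM in horse serum (median 61.0) and from 53.6 to 69.8 CPM in STEM (median 61.0). The medians were the same to the first decimal, library 6 was the value of 114 CPM, and the next was 71.9 CPM. The log2 fold change of -0.14 ± 0.18 with all libraries (adjusted p = 0.584) became 0.07 ± 0.10 without library 6 (adjusted p = 0.554). Ccnb2 gave -0.19 ± 0.18 and 0.02 ± 0.09, neither called, with STEM at 40.7 to 52.8 CPM inside the horse serum range of 39.6 to 88.9 CPM. Cdc25c, the phosphatase that activates CDK1, was at 8.72 to 20.1 CPM in horse serum and 9.43 to 10.9 CPM in STEM, also inside, and was not called (-0.31 ± 0.16, and -0.11 ± 0.09 without library 6). The difference between the B cyclins and Cdk1 was not tested.

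**Figure D3:**
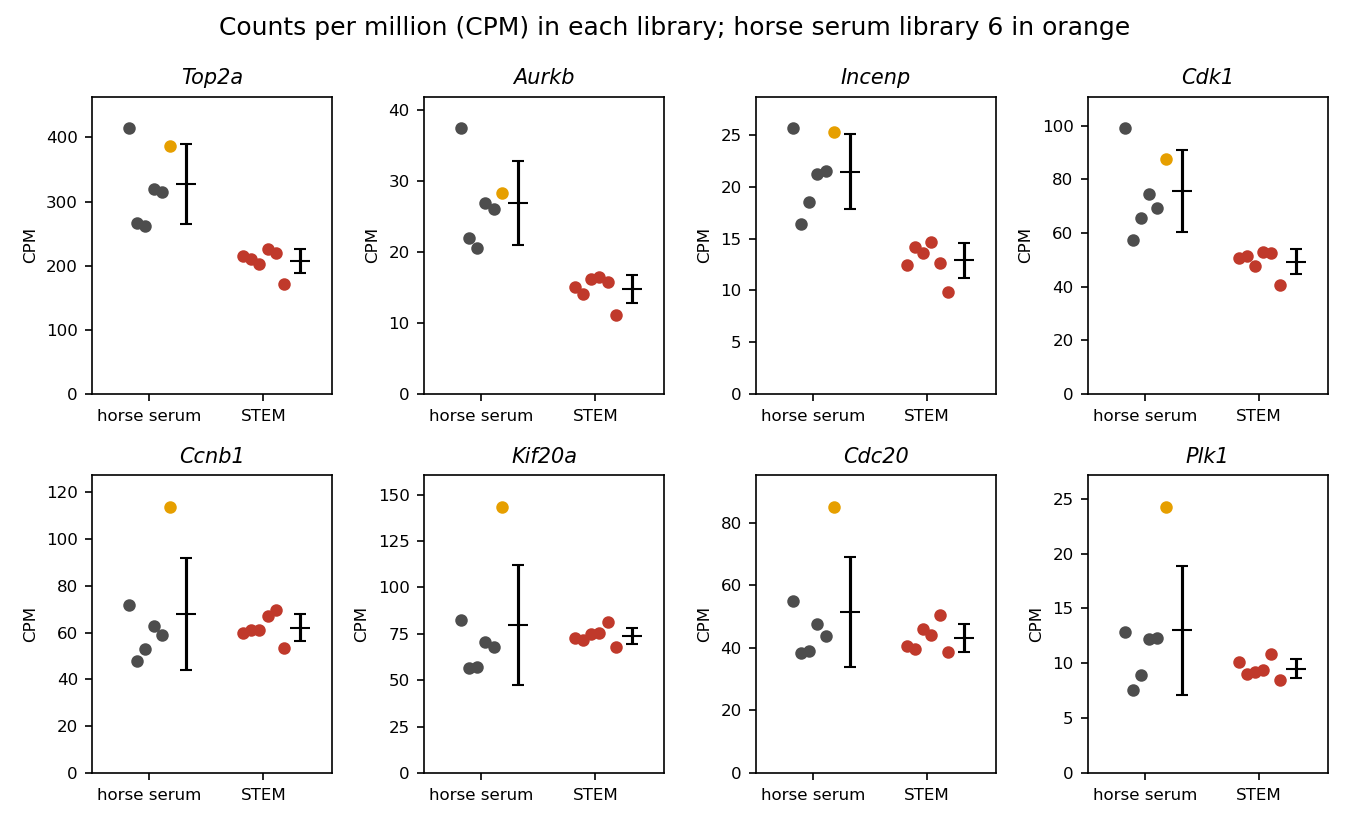
Each point is 1 library in CPM (vertical axes start at 0), with 6 horse serum libraries on the left of each panel, library 6 in orange, and 6 STEM libraries in red on the right; bars give mean and SD of the 6. In Top2a, Aurkb, Incenp and Cdk1 all STEM points lie below all horse serum points, while in Ccnb1, Kif20a, Cdc20 and Plk1 library 6 stands above 11 points that overlap.

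Of the 5 mitotic and checkpoint kinases, 4 fell. Ttk, the kinase MPS1 that starts the spindle checkpoint, ran from 19.3 to 33.8 CPM in horse serum (median 23.6) and from 14.3 to 18.2 CPM in STEM (median 16.2), without overlap, and changed by -0.66 ± 0.13 (adjusted p = 0.00120) and by -0.56 ± 0.11 without library 6. Aurka, the kinase of the spindle poles, was also without overlap, at 18.1 to 33.9 CPM against 15.3 to 18.1 CPM, although its nearest values differed by less than 1 CPM, and it changed by -0.55 ± 0.12 (-0.42 ± 0.08 without library 6). The checkpoint proteins Bub1b (BUBR1) and Bub1 changed less, by -0.49 ± 0.16 (adjusted p = 0.0291) and -0.36 ± 0.13, and without library 6 by -0.34 ± 0.12 and -0.24 ± 0.09. Both had ranges that overlapped. Plk1, which acts at entry, at the spindle and in cytokinesis, was not called. It ran from 7.56 to 24.2 CPM in horse serum (median 12.2) and from 8.49 to 10.8 CPM in STEM (median 9.31), with every STEM library above the lowest horse serum library. Its change was -0.46 ± 0.23 (adjusted p = 0.128) and -0.18 ± 0.12 without library 6, which held 2.25 times the mean of the other 5 horse serum libraries, the largest such ratio among the 38 genes.

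Among the genes of the APC/C and of protein turnover, Cdca3, which serves a ligase that degrades the inhibitor WEE1, fell by 0.51 ± 0.17 on the log2 scale (adjusted p = 0.0280), and its change was -0.33 ± 0.10 without library 6. Cdc20, the activator of the APC/C, ran from 38.4 to 84.9 CPM in horse serum (median 45.6) and from 38.7 to 50.6 CPM in STEM (median 42.3). The STEM libraries lay wholly inside the horse serum range, and the change of -0.26 ± 0.18 (adjusted p = 0.277) was -0.05 ± 0.10 without library 6. Ube2c, the enzyme that gives the APC/C its ubiquitin, was not called (-0.33 ± 0.16, and -0.17 ± 0.11 without library 6), at 13.1 to 27.4 CPM against 12.8 to 15.1 CPM. Its exons share 22.8% of their bases with the gene of fast troponin C, Tnnc2, on the opposite strand, and the strand setting of the counting is not given in the sources used here.

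At the kinetochore, which ties chromosomes to microtubules, 2 of 7 genes fell, both of the NDC80 complex. Over all genes 17.4% fell, and 24.5% without library 6, when the kinetochore count was again 2. Spc25 ran from 19.1 to 28.4 CPM in horse serum (median 22.8) and from 13.9 to 18.02 CPM in STEM (median 16.2), with no overlap and a change of -0.53 ± 0.09 (adjusted p = 0.000508, and -0.47 ± 0.08 without library 6). Ndc80 changed by -0.53 ± 0.15 (adjusted p = 0.0126, and -0.38 ± 0.10 without library 6), with STEM at 15.6 to 22.1 CPM and horse serum at 21.1 to 41.3 CPM. The other subunits of that complex were not called, with Nuf2 at -0.41 ± 0.16 and Spc24 at -0.31 ± 0.13, and at -0.25 ± 0.11 and -0.23 ± 0.12 without library 6. The centromeric histone Cenpa, the motor Cenpe and the large matrix protein Cenpf gave -0.26, -0.29 and -0.27 with all libraries. Without library 6 they gave -0.07, -0.07 and -0.12, none of them called, and STEM lay inside the horse serum range for Cenpe (43.4 to 50.01 CPM against 41.1 to 96.9 CPM).

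Of 6 spindle motors and microtubule binders, 5 fell. Kif11, the motor that pushes spindle poles apart, ran from 53.5 to 97.7 CPM in horse serum (median 66.3) and from 38.7 to 49.4 CPM in STEM (median 47.1). The groups did not overlap, and the change was -0.61 ± 0.13 (adjusted p = 0.00215) and -0.49 ± 0.09 without library 6. Nusap1, which bundles microtubules near chromosomes, also did not overlap, at 36.5 to 56.3 CPM against 28.9 to 34.2 CPM, with a change of -0.54 ± 0.10 (-0.46 ± 0.08 without library 6). Hmmr (-0.52 ± 0.12) and Tpx2, which activates Aurora A (-0.45 ± 0.13), fell with 1 STEM library each above the lowest horse serum library. Without library 6 their changes were -0.43 ± 0.10 and -0.31 ± 0.09. The chromokinesin Kif4 changed by -0.38 ± 0.14 and by -0.22 ± 0.08 without library 6, the smallest change of a called gene in that fit. Kif2c, the depolymerizing kinesin that corrects attachments together with Aurora B, was not called at -0.26 ± 0.17 and -0.04 ± 0.07, with STEM at 23.2 to 26.7 CPM inside the horse serum range of 21.2 to 50.1 CPM.

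Of 6 genes of the central spindle and cytokinesis, 4 fell. Ect2, the exchange factor that switches on RhoA at the division plane, ran from 34.5 to 68.3 CPM in horse serum (median 40.4) and from 23.8 to 31.5 CPM in STEM (median 28.04). Its groups were apart, with a change of -0.70 ± 0.15 (adjusted p = 0.00330) and -0.54 ± 0.10 without library 6. Anln, the anillin scaffold of the contractile ring, ran from 143 to 237 CPM (median 157) against 98.9 to 127 CPM (median 114), also apart, with -0.61 ± 0.12 and -0.50 ± 0.09. Prc1, which bundles the midzone, was apart too (-0.51 ± 0.10, and -0.46 ± 0.11 without library 6), and Kif23, the motor subunit of centralspindlin, changed by -0.42 ± 0.13 (-0.30 ± 0.09). Its partner subunit Racgap1 gave -0.33 ± 0.13, and -0.19 ± 0.08 without library 6, and missed the threshold in both fits. Kif20a, the motor that carries the passenger complex to the midzone, ran from 56.7 to 143 CPM in horse serum (median 69.5) and from 68.0 to 81.2 CPM in STEM (median 73.8). It had the smallest change of the 38 genes with all libraries, -0.11 ± 0.20 (adjusted p = 0.691), and 0.14 ± 0.09 without library 6 (adjusted p = 0.197). Library 6 was at 143 CPM and the next horse serum library at 82.3 CPM, and 29.3% of the exon bases of Kif20a overlap the gene Cdc23 on the opposite strand.

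**Figure D4:**
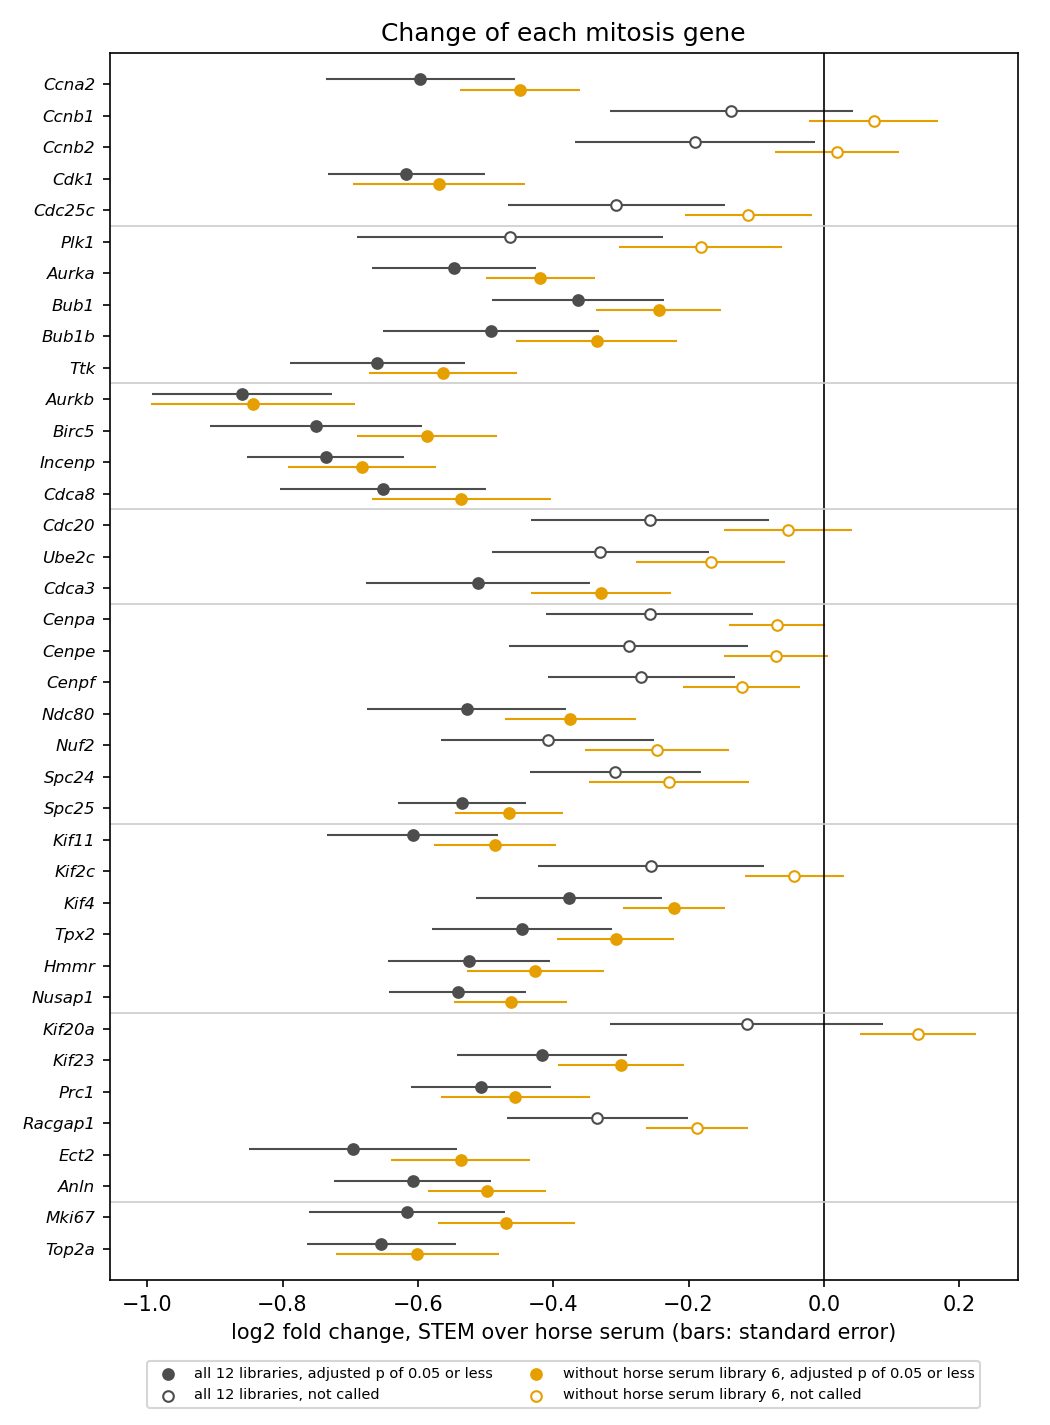
Points give the log2 fold change of each mitosis gene, STEM over horse serum, with its standard error, from all 12 libraries (grey) and without horse serum library 6 (orange); filled points have an adjusted p of 0.05 or less and grey lines divide the roles. The same 24 genes are filled in both fits, and Ccnb1, Ccnb2 and Kif20a lie above 0 without library 6.

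The 14 genes that were not called spanned the range of levels, from Cdc25c, the lowest of the 38 at 2.54 CPM per kilobase of exon in horse serum, to Ccnb2. Per kilobase of exon, Top2a (36.3 CPM), Ccnb2 (34.8 CPM), Cdc20 (27.5 CPM) and Ccna2 (25.2 CPM) were the most abundant in horse serum, and in STEM Ccnb2 (30.6 CPM) stood first, ahead of Cdc20 (23.1 CPM) and Top2a (23.0 CPM). The excess of library 6 over the mean of the other horse serum libraries was 1.33 to 2.25 times in the genes not called (median 1.87) and 1.07 to 1.78 times in the 24 called genes (median 1.499). This is a description, since the height of that library enters the call. A call is a threshold on the adjusted p, and the difference between called and not called genes was not tested. Both kinds of gene held the promoter words shown above: a CHR in 18 of 20 called and 8 of 11 other genes with a window, and a CCAAT box in 16 of 20 and 9 of 11.

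Leaving out any single library kept 20 of the 24 calls in all 12 fits. Bub1, Bub1b, Cdca3 and Kif4 were called in 6, 7, 9 and 4 of the 12. Horse serum library 1, the second highest, was then left out together with library 6, a choice made after the data were seen. Both were picked for their high levels of these same genes, so leaving them out raises the fold changes by construction. The calls of that fit are a description and not a test. The median change of the 38 genes was -0.24, and 21 genes were called lower. Kif20a, at 0.22 ± 0.07, was called higher with STEM. Over all genes, 6690 were called in either direction in that fit, against 5155 with all 12 libraries. The 3 calls lost were those of Bub1, Bub1b and Kif4. Aurkb kept -0.69 ± 0.10, Incenp -0.60 ± 0.10 and Top2a -0.48 ± 0.08 in that fit, while Ccnb1 stood at 0.15 ± 0.08 and was not called.

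Genes outside the 38 that belong to the same pathway were taken from 8 lists of 132 genes, all of them tested. Of these, 69 fell and 5 rose (69 and 15 without library 6), with a median log2 fold change of -0.29 (-0.21 without it). Over all genes 17.4% fell and 18.9% rose, and without library 6 these shares were 24.5% and 26.3%. The same shares stand beside the counts of each list below. The share of genes that fell was largest among the ring complexes that hold or compact chromosomes, cohesin and condensin. There 17 of 18 genes fell and 1 rose, counts that were the same without library 6, while the sizes of the changes differed widely. The values of single genes in the lists are from all 12 libraries unless stated. Smc4, a core subunit of condensin, ran from 171 to 218 CPM in horse serum and from 112 to 126 CPM in STEM and changed by -0.66 ± 0.06 (adjusted p = 9.05e-07). Esco2, which acetylates cohesin during S phase, had the largest change of that list, -1.22 ± 0.11. The cohesin core subunit Smc3 changed by -0.44 ± 0.05 and the condensin II subunit Ncapg2 by -0.72 ± 0.09, while Stag1, a cohesin subunit, rose by 0.15 ± 0.05 (adjusted p = 0.0384).

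Of 19 genes for the APC/C subunits, securin and separase, 2 fell and 2 rose, beside 17.4% lower and 18.9% higher over all genes, and the median log2 fold change was 0.01. Without library 6, 3 fell and 4 rose, with a median of 0.04. The genes that fell were Fbxo5, the APC/C inhibitor EMI1 (-0.86 ± 0.14), and Espl1, separase (-0.42 ± 0.16, adjusted p = 0.0463, and -0.26 ± 0.10 without library 6), and those that rose were the subunits Anapc16 (0.47 ± 0.05) and Anapc4 (0.17 ± 0.04). The large subunits Anapc1 and Anapc5 gave 0.05 ± 0.07 and -0.05 ± 0.05 and were not called with all libraries, and Anapc1 was called higher without library 6 (0.13 ± 0.04, adjusted p = 0.0154). Fzr1, which encodes the APC/C activator CDH1, stood at 41.2 ± 2.8 CPM in horse serum and 42.2 ± 2.2 CPM in STEM (SD, n = 6 each), with a log2 fold change of 0.03 ± 0.06.

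Of 11 genes that control entry, 6 fell and none rose (7 fell without library 6). Both sides of the CDK1 switch were among them: Wee1, the kinase that holds CDK1 off, changed by -0.64 ± 0.08 (adjusted p = 2.5e-05), and Cdc25b, a phosphatase that turns it on, by -0.56 ± 0.10. Mastl, the Greatwall kinase (-0.59 ± 0.10), and Cks2, a small CDK partner (-0.55 ± 0.10), fell as well, while Ensa and Arpp19, the substrates of Mastl, gave -0.03 ± 0.09 and 0.06 ± 0.04. Without library 6 Ensa was called lower (-0.11 ± 0.04, adjusted p = 0.0226). Of 12 spindle checkpoint genes 5 fell and none rose, with a median of -0.30. Without library 6, 5 were lower and 4 higher, with a median of -0.18, when 24.5% of all genes were called lower and 26.3% higher. Among those that fell were Kntc1, the ROD subunit that recruits the checkpoint to kinetochores (-1.03 ± 0.13), and Sgo2a, Knl1 and Sgo1, between -0.52 and -0.42. Bub3 and Mad1l1 stood at 0.12 ± 0.05 and 0.21 ± 0.11 with all libraries, not called, and were called higher without library 6 (0.17 ± 0.04 and 0.33 ± 0.07).

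Of 27 genes of the inner kinetochore and of CENP-A loading 12 fell and none rose, with a median of -0.28, and without library 6 11 fell and 2 rose, with a median of -0.18. Among those that fell with all libraries were Oip5, which takes part in CENP-A loading (-0.93 ± 0.15), Ska3 (-0.68 ± 0.15) and Cenpw (-0.55 ± 0.13). Of 21 other spindle and cytokinesis genes 14 fell, with 14 lower and 1 higher without library 6 and a median that went from -0.43 to -0.29. Among those that fell were Depdc1a (-0.57 ± 0.08), Spag5 (-0.61 ± 0.11), Ckap2l (-0.57 ± 0.11) and the microtubule polymerase Ckap5 (-0.24 ± 0.05). Numa1, which anchors spindle poles, gave 0.01 ± 0.06. Of 9 genes of centrosome duplication 5 fell, Cep152, Stil, Plk4 and Cep192 among them, from -0.74 to -0.28. Without library 6, 4 of the 9 fell and 1 rose, and the median went from -0.28 to -0.19.

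The regulators of G2/M transcription are a list of 15 genes, of which 8 fell and 2 rose, and the counts were the same without library 6. Foxm1, the factor that drives the late G2 genes, was at 15.8 ± 5.1 CPM in horse serum and 11.1 ± 2.0 CPM in STEM (SD, n = 6 each), and changed by -0.53 ± 0.18 (adjusted p = 0.0357) and by -0.34 ± 0.12 without library 6. Mybl2, B-MYB, which joins the MuvB complex at CHR promoters in cycling cells, changed by -0.81 ± 0.21 (adjusted p = 0.00770) at the low level of 1.06 to 3.64 CPM. The pocket proteins Rbl1 (p107) and Rbl2 (p130), which join MuvB in the repressive DREAM complex, fell by 0.59 ± 0.10 and 0.22 ± 0.04 on the log2 scale, and the DNA-binding MuvB subunit Lin54 fell by 0.41 ± 0.07. E2f4, the E2F of DREAM, rose by 0.39 ± 0.06 (adjusted p = 0.000292), and Nfyc, a subunit of the factor that binds CCAAT boxes, rose by 0.24 ± 0.08. Transcript levels of these regulators say nothing of their activity on the promoters printed above.

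**Figure D5:**
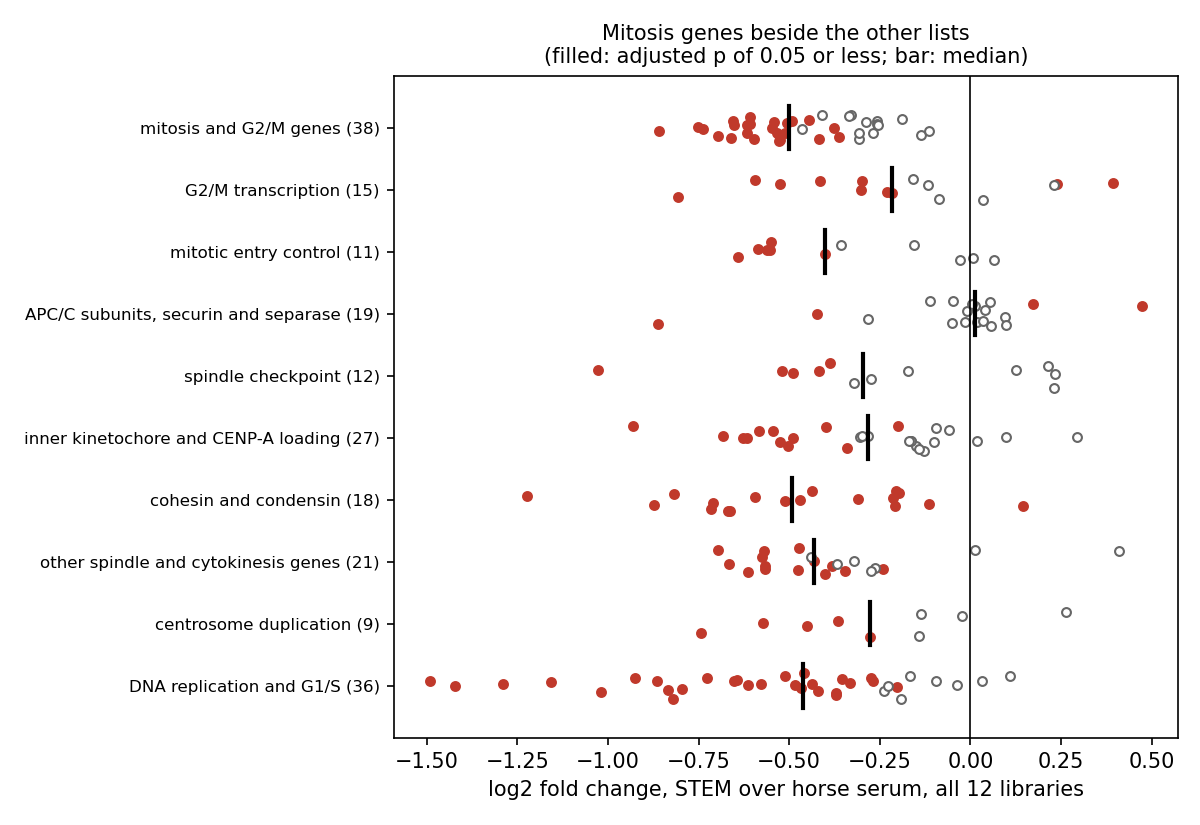
Each point is 1 gene, placed by its log2 fold change (STEM over horse serum, all 12 libraries) and grouped by list, with the number of genes in brackets; filled points have an adjusted p of 0.05 or less and black bars are medians. The 38 genes and most lists lie left of 0 with medians down to -0.50, and the APC/C list is centred on 0.01.

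For comparison, of 36 genes of DNA replication and the G1/S transition, which act earlier in the cycle, 28 fell and none rose, with a median log2 fold change of -0.46. The lowest p-values were those of Lig1, the replicative DNA ligase (-1.49 ± 0.15), Pola1 (-0.86 ± 0.09), Cdc45 (-0.73 ± 0.08) and Ccne2, cyclin E2 (-0.83 ± 0.11). Without library 6 the counts were 28 lower and 1 higher, and the median was -0.37. Over all genes 17.4% fell and 18.9% rose, and without library 6 these shares were 24.5% and 26.3%. The difference between this list and the 38 genes was not tested.

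Markers of myoblasts and reserve cells did not move as one. Of 10, 5 fell and 2 rose, and the satellite cell factor Pax7 gave -0.04 ± 0.11 (26.03 to 37.1 CPM in horse serum, 26.2 to 42.1 CPM in STEM). Myf5 (-0.42 ± 0.08), Spry1 (-0.63 ± 0.08), Vcam1 (-0.80 ± 0.06), Sdc4 (-0.89 ± 0.16) and Itga7 (-0.26 ± 0.04) fell, Cdh15 (0.46 ± 0.09) and Hey1 (0.68 ± 0.09) rose, and Myod1 and Heyl were not called. Without library 6, Heyl was called higher as well (0.71 ± 0.13, adjusted p = 0.00041), so that 5 fell and 3 rose. Of the 16 myotube markers 3 rose, namely Myh4, Mymk and Ryr1, and 2 fell, namely Myh8 and Myog. Without library 6, 3 rose and 6 fell. Over all genes 18.9% rose and 17.4% fell, and without library 6 these shares were 26.3% and 24.5%. Among fibroblast markers Ly6a fell (-1.09 ± 0.11) and Dpt rose (1.10 ± 0.19) at levels of at most 38.7 and 8.36 CPM. Without library 6, Ly6a fell, and Dpt and Pdgfra (0.67 ± 0.08) rose. In that fit the leukocyte marker Csf1r also rose (1.45 ± 0.36), at no more than 1.23 CPM. The part of these markers in the fall of the mitosis genes was not tested.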

How the data were processed

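The authors made strand-specific libraries from total RNA after ribosomal depletion and deposited raw read counts per Ensembl gene on GRCm38, without normalization. The submitters' processing notes name STAR 2.7.3a, featureCounts 1.6.3 and DESeq2 1.26.0, and the strand setting and annotation release are not given in the sources used here. Depth was 13285472 to 24536264 counts per library, and groups came from the labels. Symbols and positions came from GENCODE M21, which held 55227 of 55487 rows, and the rest held 0.00268% of counts. The counts were tested in R 4.3.3 with edgeR 4.0.16 (TMM, filterByExpr, robust glmQLFit, glmQLFTest), 14175 genes being kept, and p-values were adjusted over all of them. Genes were called at an adjusted p of 0.05 or less. Standard errors are the log2 fold change over the root of F, and CPM used TMM-scaled totals. In simulated counts with independent libraries, the fit recovered 84 of 100 genes changed 1.5-fold and 98 of 100 changed 2-fold. Of its calls there, 6.67% were false. Smaller changes, such as the median change of the 38 genes, were not simulated, nor was a library that stands apart. DESeq2 1.42.0, limma-voom (limma 3.58.1), other scalings, filters and thresholds, thinning to the lowest total and leaving out each library were alternatives. Within-group pairs of libraries differed by more than sampling noise. The members, the lists of other genes and the tests were chosen with earlier results of these data known. Of each other list, the text names at most 4 called genes with the lowest p-values, at most 2 called in the minority direction, and at most 2 not called with the highest CPM, with Foxm1, Mybl2, Wee1 and Fzr1 in every case. Every marker gene may be named. The result of 1 gene that meets this rule is not reported here. Exons of 11 of the 38 genes overlap another annotated gene, with over 20% of bases in Kif20a and Ube2c.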

Additional observations from a re-analysis of the deposited data

Results flagged for a closer look

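Within groups of 6 libraries, 9 of the 76 groups examined (38 genes in each of 2 treatments) held a library whose distance to its nearest neighbour was, as a share of the group's range, past Dixon's critical value. About 1 in 20 groups would be singled out so by chance. In horse serum library 6, 7 genes that were not called between the groups stood apart: Ccnb1 at 114 CPM (next 71.9), Plk1 at 24.2 (12.9), Cdc20 at 84.9 (55.0), Cenpa at 59.4 (38.4), Cenpe at 96.9 (59.2), Kif2c at 50.1 (30.7) and Kif20a at 143 CPM (82.3). In STEM, library 12 was low for Ccna2 at 56.0 CPM (next 68.0) and library 7 was low for Ube2c at 12.8 CPM (next 14.3). The values of the 38 genes come from the same libraries, so these are not independent observations.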

How the results depend on the processing

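No paired analysis was possible because the groups share no replicate number (1 to 6 and 7 to 12). With all genes, 5155 were called, 3266 at an adjusted p of 0.01 or less and 1557 against a 1.2-fold change. Without horse serum library 6, 7245 were called, and 6690 without horse serum libraries 1 and 6. The number of the 38 genes called lower lay between 16 (against a 1.2-fold change) and 26 (DESeq2) over the alternatives of tool, filter, scaling, depth and threshold, with 18 when no filter was applied, and 17 at 0.01; none was called higher in any of these. Leaving out each library gave 20 to 27 called lower, and a median log2 fold change from -0.57 (without horse serum library 2) to -0.33 (without library 6). Horse serum libraries 1 and 6 were also left out together, chosen after seeing the data for their high levels of these same genes. That choice raises the fold changes by construction. It gave a median of -0.24, 1 gene called higher, and log2 fold changes above 0 for Ccnb1 (0.15), Ccnb2 (0.12), Cdc20 (0.0312), Cenpe (0.00146), Kif2c (0.0214) and Kif20a (0.22). Leaving out each library gave -0.22 to 0.0734 for Ccnb1, -0.26 to 0.0197 for Ccnb2 and -0.19 to 0.14 for Kif20a, each highest without library 6. Of the 132 other mitosis genes, 69 were called lower, and 30 against a 1.2-fold change. Their 5 called higher became 1 against a 1.2-fold change, 3 at 0.01, 14 without libraries 1 and 6, and 3 to 15 when each library was left out, the 15 without library 6. Fewer libraries or a stricter criterion are part of these alternatives, and the cause of the changed directions was not tested. Scaling moved the median of all genes from -0.01 to 0.03 and reversed none of the 38 genes. The lowest count of any of the 38 genes was 98, for Plk1, and thinning every library to the lowest total changed no call among the 38.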
